A study of Mus musculus with 136 samples.

Results

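The genes described here are 39 genes linked to neural tube defects in mice, singly or in combination, and they were picked by symbol from the 47643 genes of the count table. They comprise 10 genes of planar cell polarity, 11 genes of the actin cytoskeleton and apical constriction, 7 genes for transcription factors and their partners, 3 chromatin genes, 3 genes of hedgehog signalling and the primary cilium, 3 genes of other signalling pathways, and 2 genes of the apoptosome. RNA had been collected from the embryo and from the visceral yolk sac of 66 concepti at E8.5, and every dam was of the NOD strain on the same chow diet. In this strain females become diabetic spontaneously. Embryos were staged by somite pairs, and a yolk sac was given the stage of its own embryo. At the 5–6 somite stages there were 17 concepti of normal pregnancies (10 litters) and 17 of diabetic pregnancies (9 litters), and at the 7–9 somite stages there were 16 (7 litters) and 16 (6 litters). Embryos with 5 and 6 pairs numbered 11 and 6 in normal and 13 and 4 in diabetic pregnancies. Those with 7, 8 and 9 pairs numbered 7, 4 and 5 in normal and 4, 9 and 3 in diabetic pregnancies. Maternal glucose lay between 105 and 164 mg/dl in normal and between 423 and 595 mg/dl in diabetic dams, wherever the labels give a number. Littermates share a dam, and the litter D24M15 supplied 7 of the 16 diabetic concepti of the later stage.

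The neural tube forms when the neural plate bends, its edges rise as folds, and the folds meet and fuse at the midline while the surface ectoderm closes over them. Planar cell polarity proteins narrow and lengthen the plate, and actomyosin with its regulators constricts the apical side of the cells at hinge points. Transcription factors of the fold edge and of the surface ectoderm, hedgehog signalling through the primary cilium, and programmed cell death are also needed. In the mouse, fusion of the cranial folds starts around the somite stages sampled here.

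Total counts per library ranged from 1017901 to 5658850 with a median of 2302819. The libraries carried the transcripts that their tissue label calls for: the 8 neural plate markers summed to 922–2771 normalized counts in embryos and to 9.93–317 in yolk sacs, whereas the 10 visceral endoderm markers summed to 96.3–3362 in embryos and to 10372–53508 in yolk sacs. The 8 surface ectoderm markers did not separate the tissues in this way, with sums of 815–1707 in embryos and 1535–4673 in yolk sacs. A normalized count is a count divided by the size factor of its library. Sex-linked transcripts matched the label of the library in 132 of 132 cases, but in 2 of 66 concepti the embryo and the yolk sac were labelled with different sexes. These concepti are D28M27C and N28M07E. The paper does not say how sex was determined. Labels taken from these counts would match by design, so the match cannot be taken as a check of sample identity. A male embryo, D24M15G, had 233 counts of Xist, against at most 97 in the other male libraries and a median of 2097.5 in female libraries. Each embryo result was therefore also computed without these 3 concepti.

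Of the 39 genes, 38 had enough counts to be tested in 5–6 somite embryos and 37 in 7–9 somite embryos. In yolk sacs, 34 were tested at each stage. Dvl3, the remaining Dishevelled gene, averaged 2.56–5.43 normalized counts over the 8 groups and was tested nowhere. Grhl3, a Grainyhead factor of the surface ectoderm, had means of 9.26–11.4 in embryos and was tested in the younger embryos. In yolk sacs Grhl2, Grhl3, Zic2 and Tfap2a were too low for a test of maternal diabetes. The annotated 3′ ends of 4 genes overlap an exon of another gene: Cfl1, Dvl1 and Vcl run into a gene of the opposite strand, and Dvl2 into one of the opposite and one of the same strand. How strand was used in counting is not given in the sources used here.

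The upstream stretches of 4 genes are printed because the results turn on these genes. Fkbp8 and Tulp3 are the members whose response to maternal diabetes was called different between the stages, though not under every setting. Ptk7 and Apaf1 varied widely and together between embryos of a group. Each line holds the 250 bases upstream of the RefSeq transcription start on the strand of the gene, from GRCm38.p6. Capitals mark CCAAT, the box bound by NF-Y, and GCCNNNGGC, the AP-2 motif, on either strand.
Fkbp8, chr8:70527493-70527742, plus strand: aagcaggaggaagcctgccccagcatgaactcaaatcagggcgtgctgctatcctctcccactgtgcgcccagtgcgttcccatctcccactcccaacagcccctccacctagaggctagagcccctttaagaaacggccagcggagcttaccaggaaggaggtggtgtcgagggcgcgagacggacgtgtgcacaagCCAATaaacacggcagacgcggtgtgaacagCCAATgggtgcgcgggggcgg
Tulp3, chr6:128355852-128356101, minus strand: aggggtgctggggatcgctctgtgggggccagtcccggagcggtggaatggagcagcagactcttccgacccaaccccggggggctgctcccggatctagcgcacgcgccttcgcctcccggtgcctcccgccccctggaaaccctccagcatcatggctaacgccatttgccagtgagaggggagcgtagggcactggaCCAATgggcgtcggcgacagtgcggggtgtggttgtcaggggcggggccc
Ptk7, chr17:46629505-46629754, minus strand: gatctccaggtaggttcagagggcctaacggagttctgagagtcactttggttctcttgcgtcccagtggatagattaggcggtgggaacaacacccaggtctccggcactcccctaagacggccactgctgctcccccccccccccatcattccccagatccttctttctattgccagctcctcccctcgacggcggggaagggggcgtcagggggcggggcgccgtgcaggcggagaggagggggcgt
Apaf1, chr10:91082744-91082993, minus strand: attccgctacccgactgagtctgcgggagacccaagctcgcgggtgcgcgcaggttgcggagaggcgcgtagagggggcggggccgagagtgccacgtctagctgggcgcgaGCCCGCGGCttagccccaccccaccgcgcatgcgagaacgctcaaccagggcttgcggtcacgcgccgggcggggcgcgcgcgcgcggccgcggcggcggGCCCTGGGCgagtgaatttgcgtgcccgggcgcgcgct
Fkbp8 held 2 CCAAT boxes and Tulp3 held 1. Ptk7 held neither motif, and Apaf1 held 2 AP-2 motifs. CCAAT was found upstream of 9 of the 31 members in the promoter table and in 33.8% of all 32851 promoters of that length. GCCNNNGGC was found for 5 of the 31 members and in 13.7% of all promoters. The Grainyhead motif AACCNGTT was found for 0 of the 31 members and in 1.79% of all promoters.

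The first question was whether expression of these genes differed in embryos between normal and diabetic pregnancies. At the 5–6 somite stages 0 of the 38 members tested passed an adjusted p of 0.05 in the edgeR quasi-likelihood test, where 1.46% of all 11004 genes did (0.591% higher and 0.872% lower). DESeq2 also called 0 members, against 3.61% of all genes. An unadjusted p under 0.05 was found for 6 of 38 members and for 2313 of all 11004 genes. The median log2 fold change was 0.03 over the members and 0.00 over all genes, with 22 members above 0. Ptk7, a transmembrane pseudokinase of the polarity pathway, had the largest estimate at 1.02 ± 0.40 (SE, log2, adjusted p = 0.146). Its median was 66.8 in normal and 93.7 in diabetic embryos. The diabetic mean of 159 ± 184 (SD) included 684 in D23M11A. Ptk7 was not followed with litters left out or by litter means in this comparison. Nf1, a Ras GTPase-activating protein, Tulp3 and Grhl2, a Grainyhead factor of non-neural ectoderm, had estimates of 0.35, 0.37 and 0.27, and Dvl2, a cytoplasmic transducer of polarity and Wnt signals, and Casp9, the initiator caspase of the apoptosome, had estimates of -0.37 and -0.25. The adjusted p of these 5 genes lay between 0.113 and 0.191.

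For Casp9 in the younger embryos the lowest, median and highest normalized counts were 31.1, 45.0 and 53.9 in normal and 24.3, 38.4 and 44.7 in diabetic pregnancies. All 17 diabetic embryos lay under the normal median, and 4 lay under the lowest normal embryo. By litter means, all 9 diabetic litters were under the median of the normal ones, with a two-sided exact permutation p of 0.00191 that is unadjusted and 1 of 44 such tests over 11 members. These 11 members were picked for a call or a small p in the same libraries. The litter p-values given here and below are therefore no independent support. Over all genes Casp9 remained uncalled, with an adjusted p of 0.116. Dvl2 ranged over 184, 293 and 486 in normal and 129, 214 and 352 in diabetic embryos in the same order, and 12 of 17 diabetic embryos were under the normal median. Its litter means gave an exact permutation p of 0.0769. In the same embryos the neural plate markers summed to 1383–2771 in normal and 922–2017 in diabetic pregnancies, with 0 of 8 called by edgeR and 3 at an unadjusted p under 0.05. Other marker lists leaned too, with 0 genes called in each. Estimates were above 0 for 0 of 5 heart markers (median -0.21), 0 of 4 paraxial mesoderm and 1 of 5 endothelial markers tested. The same held for 2 of 7 surface ectoderm and 7 of 8 visceral endoderm markers. Heart markers summed to 678–2233 in normal and 152–2011 in diabetic embryos. The part of all these markers in the estimates of the members was not tested.

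In the older embryos, 2 of the 37 members tested were called, against 9.09% of all 10628 genes. Fkbp8 was higher and Celsr1 was lower in diabetic pregnancies. The median log2 fold change over the members was -0.07 and over all genes it was -0.01. The 2 transcripts belong to different pathways: FKBP8 is an immunophilin that restrains hedgehog signalling in the developing spinal cord, and CELSR1 is the atypical cadherin of the core polarity complex.

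Fkbp8 lies on chr8:70527724-70535328 of GRCm38. Its normalized counts in 7–9 somite embryos were 127 at the lowest, 181 at the median and 255 at the highest in normal pregnancies, and 185, 225 and 286 in diabetic pregnancies. All 16 diabetic embryos exceeded the normal median and 4 exceeded the highest normal embryo, so the groups overlapped. The mean was 180 ± 35.3 (SD, n = 16) in normal and 228 ± 29.3 (SD, n = 16) in diabetic embryos, a log2 fold change of 0.34 ± 0.08 (SE, adjusted p = 0.0107 by edgeR). Taking litters as units, all 6 diabetic litters were above the median of the normal ones (exact permutation p = 0.00583, unadjusted, where the smallest possible value is 0.000583). Fkbp8 stayed called with each of the 13 litters left out in turn and with litter as a random block, but not when counts were summed per litter, where no gene was called and its adjusted p was 0.108. At each somite number from 7 to 9 the diabetic median was above the normal median, in small groups. It was 240 (n = 4) against 182 (n = 7) at 7 pairs and 211 (n = 9) against 182 (n = 4) at 8 pairs. At 9 pairs it was 231 (n = 3) against 180 (n = 5).

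Celsr1 lies on chr15:85898929-86033777. In 7–9 somite embryos it ranged from 55.7 to 95.2 with a median of 75.4 in normal, and from 40.4 to 81.3 with a median of 62.4 in diabetic pregnancies. Of the 16 diabetic embryos, 14 lay under the normal median and 5 under the lowest normal embryo. The log2 fold change was -0.31 ± 0.09 (SE, adjusted p = 0.0265 by edgeR). The call was lost without litter D24M15 (adjusted p = 0.104), without N28M05 (0.0766), without N28M03 (0.0513), without the 3 concepti named above (0.0508), without a filter on low counts (0.0507), when litter entered as a random block (0.0813) and when libraries were summed by litter (0.294). It was kept in the other 16 of 23 alternatives. By litter means 5 of 6 diabetic litters were under the normal median, with an exact permutation p of 0.0536. In the younger embryos Celsr1 had an estimate of -0.23 ± 0.12 (SE, adjusted p = 0.249) and a litter exact permutation p of 0.0284.

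Traf4, an adaptor of the TNF receptor family that is needed for closure, was the member with the next smallest p in the older embryos. It spanned 77.7–121 normalized counts with a median of 102 in normal and 70.8–153 with a median of 116 in diabetic embryos, and 5 diabetic embryos exceeded the highest normal one. Its log2 fold change was 0.22 ± 0.09 (SE, adjusted p = 0.102). All 6 diabetic litters were above the normal median (exact permutation p = 0.0251, unadjusted). Heart muscle markers moved in the same comparison: 3 of the 5 markers tested were called higher, and their sum was 1762–3062 in diabetic and 1165–2142 in normal embryos. Of 7 surface ectoderm markers 1 was called higher, the keratin Krt19, and 2 had an unadjusted p under 0.05. All 8 visceral endoderm markers tested had estimates above 0, between 0.21 and 0.91 with a median of 0.52 (log2), although edgeR called 0 of them and 0 had an unadjusted p under 0.05. No neural plate marker was called among 8 tested, and their sums were 1311–2692 in diabetic and 1226–2644 in normal embryos. Of the 3 primitive erythroid markers tested 0 were called by edgeR and 1 had an unadjusted p under 0.05, and the sums of all 5 markers were 36.7–4633 in diabetic and 19.3–1577 in normal embryos. The part of these tissues in the values of Fkbp8, Celsr1 and Traf4 was not tested. In RNA of a whole embryo, fewer cells of a type and less RNA per cell cannot be told apart.

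**Figure D1:**
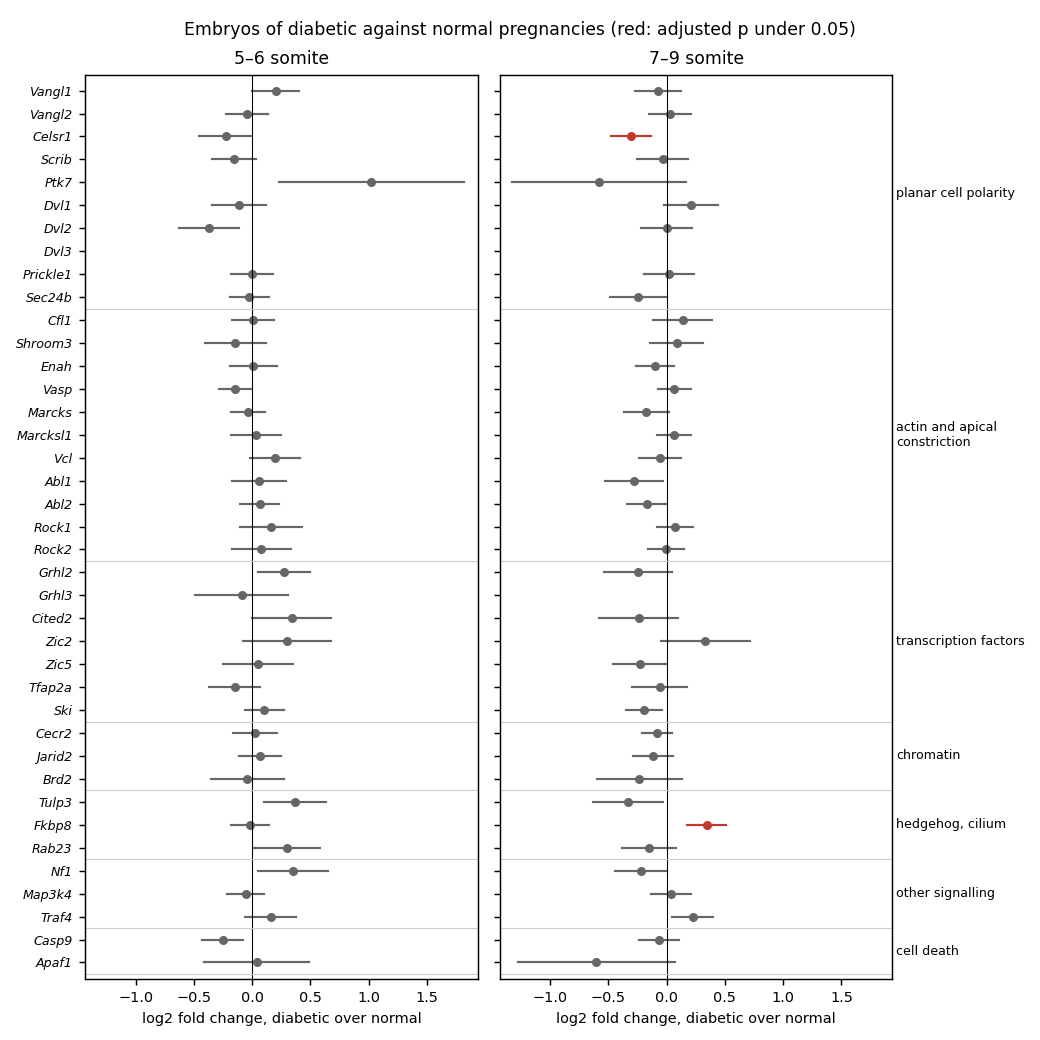
Log2 fold change of diabetic over normal embryos for each tested member at the 5–6 somite (left) and 7–9 somite (right) stages, from edgeR, grouped by role. Points are estimates, bars are 95% intervals, and red marks an adjusted p under 0.05, which holds for Fkbp8 at 0.34 and Celsr1 at -0.31 in the older embryos.

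Whether the response to maternal diabetes differed between the 2 stages was tested as an interaction over all 66 embryos. Of the 38 members tested 2 were called, against 8.7% of all 11304 genes (4.35% with a positive and 4.35% with a negative interaction). Fkbp8 had an interaction of 0.38 ± 0.12 (SE, log2, adjusted p = 0.0331), with a difference between diabetic and normal of -0.02 in the younger and 0.34 in the older embryos. In the younger embryos its counts were 125, 164 and 240 at the lowest, median and highest in normal and 124, 154 and 216 in diabetic pregnancies. The younger groups overlapped, with 6 of 17 diabetic embryos above the normal median. The interaction of Fkbp8 lost its call without litter D24M15 (adjusted p = 0.0677) and without the 3 concepti (adjusted p = 0.0538). Without a filter on low counts neither gene was called (adjusted p = 0.0666 for Tulp3 and 0.0758 for Fkbp8). Of the 5 heart markers, 2 had an interaction of the same sign that passed the test.

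Tulp3 had the interaction of opposite sign, -0.69 ± 0.20 (SE, log2, adjusted p = 0.0297). TULP3 carries receptors into the primary cilium and restrains hedgehog signalling, and the gene lies on chr6:128321161-128355851. In the younger embryos its lowest, median and highest normalized counts were 19.7, 30.8 and 61.0 in normal and 29.7, 40.4 and 73.0 in diabetic pregnancies. At that stage 16 of 17 diabetic embryos were above the normal median. In the older embryos the values were 21.5, 44.8 and 70.3 in normal and 19.1, 32.0 and 60.6 in diabetic pregnancies, and 12 of 16 diabetic embryos were below the normal median. The log2 fold change was 0.37 ± 0.13 (SE, adjusted p = 0.121) in the younger and -0.33 ± 0.15 (SE, adjusted p = 0.157) in the older embryos, so neither passed on its own. Litter means gave an exact permutation p of 0.0557 and 0.0204, with 7 of 9 diabetic litters above and then 5 of 6 below the normal median. Rab23, the remaining hedgehog member, which encodes a GTPase that also restrains the pathway, had an interaction of -0.43 that was not called.

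**Figure D2:**
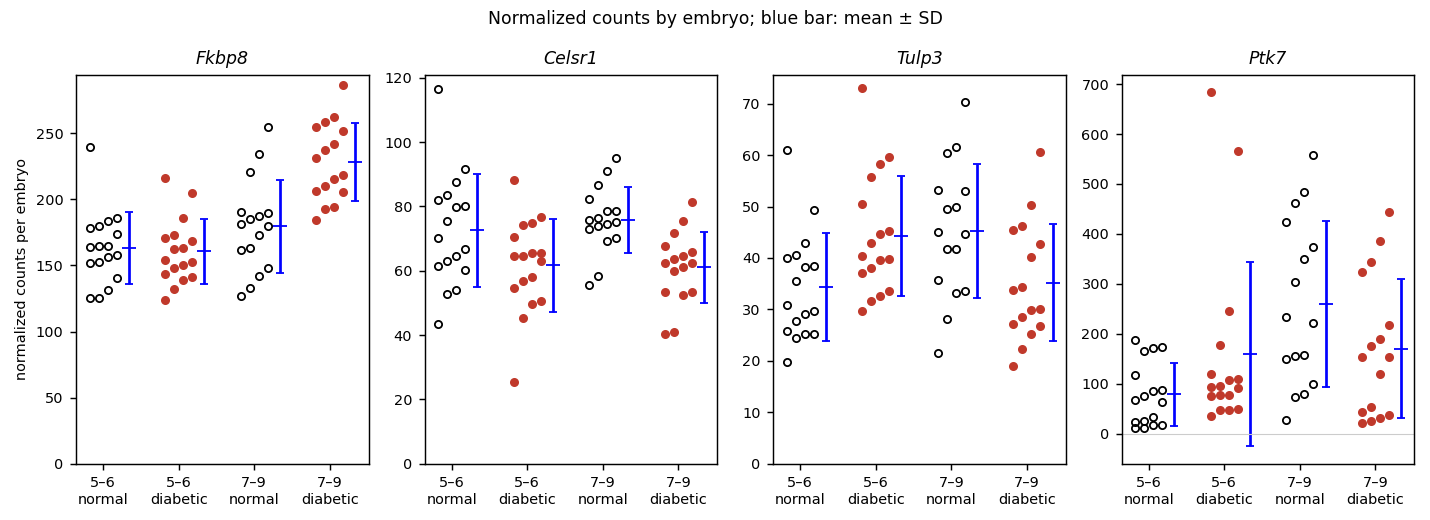
Normalized counts of Fkbp8, Celsr1, Tulp3 and Ptk7 (vertical axes, 1 point per embryo) in normal (open) and diabetic (red) embryos of 5–6 and 7–9 somites, with the mean ± SD as blue bars. The 16 older diabetic embryos lie above the normal median of 181 for Fkbp8, Tulp3 changes its order between stages, and Ptk7 spans 11.4–684.

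At the earlier stage Trp53, the tumour suppressor p53, was called among 57 other neural tube defect genes and was higher, with a log2 fold change of 0.68 ± 0.18 (SE, adjusted p = 0.0462). Of 25 further polarity genes and 33 further cytoskeletal genes 0 were called by edgeR at this stage, with 6 and 8 at an unadjusted p under 0.05. Over all 11004 genes 1.46% were called in these younger embryos (0.591% higher and 0.872% lower), and 2313 had an unadjusted p under 0.05. In the older embryos 1 of the 25 polarity genes was called, namely Wnt5a, a Wnt ligand of the polarity pathway, at -0.41. Of the 33 cytoskeletal and tissue-shape genes 3 were higher, namely Myl9 (0.52), a myosin light chain, Dstn (0.44), an actin-depolymerizing factor related to cofilin, and Actb (0.27), cytoplasmic actin. In the same list 2 were lower, Lrp2 (-0.50), an endocytic receptor of the neuroepithelium, and Epha7 (-0.47), an ephrin receptor. Of 56 other neural tube defect genes 5 were called and all 5 were lower, namely Ptch1 (-0.44), the hedgehog receptor, Lrp6 (-0.43), a Wnt co-receptor, Phactr4 (-0.39), a regulator of protein phosphatase 1 and actin, Fgfr1 (-0.32), an FGF receptor, and Mdm4 (-0.18), an inhibitor of p53. These lists were described by counts alone. The share of all genes called in the older embryos was 5.2% in the higher and 3.89% in the lower direction. These calls took littermates as independent, and litter D24M15 supplied 7 of the 16 older diabetic embryos. When counts were summed per litter, no gene was called in the older embryos. The genes of these lists were not followed singly in the other alternatives.

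In yolk sacs no member was called at either stage. At the 5–6 somite stages 0 of 34 passed in edgeR, 0 in DESeq2, and 0% of all 10250 genes were called. An unadjusted p under 0.05 was found for 2 of the 34 members and for 863 of the 10250 genes. At the 7–9 somite stages 0 of 34 passed in edgeR and 0 in DESeq2, against 0.0194% and 0.165% of all 10317 genes. An unadjusted p under 0.05 was found for 7 of the 34 members and for 1122 of the 10317 genes. Brd2, a bromodomain protein that reads acetylated histones, had the smallest p at the later stage. Its normalized counts were 184, 429 and 940 at the lowest, median and highest in normal and 406, 718 and 1155 in diabetic yolk sacs, and 15 of 16 diabetic yolk sacs exceeded the normal median. The log2 fold change was 0.61 ± 0.17 (SE, adjusted p = 0.236), and the litter means gave an exact permutation p of 0.0216. Vasp, which extends actin filaments, was at 130, 220 and 271 in normal and 195, 270 and 351 in diabetic yolk sacs, and 8 of 16 diabetic yolk sacs exceeded the highest normal one. Its highest value came from D28M36C, the library with the lowest total count. Its log2 fold change was 0.27 ± 0.09 (SE, adjusted p = 0.301) with an exact permutation p of 0.00991 over litters. Cited2, a CBP/p300-binding regulator of transcription, was at 93.9, 191 and 358 in normal and 163, 265 and 471 in diabetic yolk sacs, with a log2 fold change of 0.41 ± 0.17 (SE, adjusted p = 0.382). The 5 decidua markers summed to 92.6–172 in normal and 116–942 in diabetic yolk sacs of the later stage. At the earlier stage these sums were 81.3–266 and 127–611. At each stage 3 of the markers were tested, edgeR called 0 and 1 had an unadjusted p under 0.05. The part of decidua in the values of the members was not tested.

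At the earlier stage the smallest p among members in yolk sacs belonged to Cfl1, the actin-severing protein cofilin. It ranged from 380 to 1517 with a median of 600 in normal and from 331 to 702 with a median of 524 in diabetic yolk sacs, and the highest normal value came from the yolk sac of N28M06A. Its log2 fold change was -0.32 ± 0.12 (SE, adjusted p = 0.526), and all 9 diabetic litters were under the normal median (exact permutation p = 0.0728). Jarid2, a partner of Polycomb repressive complex 2, was at 47.8, 133 and 211 in normal and 113, 156 and 228 in diabetic yolk sacs, a log2 fold change of 0.28 ± 0.13 (SE, adjusted p = 0.572) with 14 of 17 diabetic yolk sacs above the normal median. The Jarid2 estimate was 0.17 without litter N28M06, and it lay between 0.17 and 0.39 over the 19 litters left out in turn. Vasp was at 119, 210 and 258 in normal and 178, 214 and 314 in diabetic yolk sacs, a log2 fold change of 0.16 ± 0.10 (SE, adjusted p = 0.646). The lowest normal values of Jarid2 and Vasp came from N28M06A as well. That yolk sac was also lowest of its group for Abl2, Enah, Rock1, Rock2, Vangl1 and Vangl2, among other members, and highest for Fkbp8. Among older normal yolk sacs N28M07H was lowest for Abl2, Enah and Vangl2, among others, and highest for Cfl1 and Fkbp8. Members at the ends of the range were counted per library for embryos only. Fkbp8, Celsr1 and Tulp3, the members called in embryos, had estimates of -0.03, -0.03 and 0.20 in the younger and 0.09, -0.03 and -0.19 in the older yolk sacs, with adjusted p between 0.717 and 0.981. An interaction of tissue with maternal diabetes was called for 0 of 38 members at the earlier stage by edgeR and by DESeq2, against 0% of all genes, and 2 members and 895 of all 11677 genes had an unadjusted p under 0.05. At the later stage edgeR called 0 of 37 members, against 0.389% of all genes, and DESeq2 called 1, Ski, against 1.89%. By edgeR 10 members and 2046 of all 11577 genes had an unadjusted p under 0.05. Ski encodes a co-repressor of TGF-beta signalling, and its interaction was 0.43 ± 0.13 (SE, adjusted p = 0.0738 by edgeR). In older diabetic yolk sacs Ski ranged from 116 to 341 with a median of 207. The highest value came from D28M36C, the library with the lowest total count. In normal ones it ranged from 115, in N28M07H, to 218 with a median of 181.

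The members were next compared between stages within each maternal condition. In normal embryos 6 of 38 were called, against 15.1% of all genes: 5 rose and 1 fell with somite number (6.13% and 8.97% of all genes). In diabetic embryos 12 of 38 were called, against 29.2% of all genes: 6 rose and 6 fell (15.1% and 14% of all genes). Cfl1, Brd2 and Abl2 were called in both conditions. Cfl1 rose by a log2 fold change of 0.51 ± 0.11 (SE, adjusted p = 0.00258) in normal and 0.65 ± 0.11 (SE, adjusted p = 3.85e-05) in diabetic embryos. Its median was 663 and 622 in the younger normal and diabetic embryos and 922 and 1011 in the older ones, and 10 of 16 older normal and 12 of 16 older diabetic embryos exceeded the highest younger embryo of their condition. Brd2 rose by 0.83 ± 0.19 (SE) and 0.66 ± 0.15 (SE). Abl2, a kinase that organizes actin, fell by 0.25 in normal and by 0.46 in diabetic embryos on the log2 scale.

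Ptk7, Abl1 and Marcks were called in normal embryos alone, and none of them had a called interaction of stage with diabetes. Ptk7 showed the largest rise, 1.71 ± 0.37 (SE, log2, adjusted p = 0.002). It ranged from 11.4 to 187 with a median of 66.8 in the younger and from 26.1 to 558 with a median of 227 in the older normal embryos, and 9 of 16 older embryos exceeded the highest younger one. In diabetic pregnancies it ranged from 34.8 to 684 with a median of 93.7 and from 20.8 to 445 with a median of 153, and its interaction of -1.59 ± 0.58 (SE) had an adjusted p of 0.067. Abl1, a tyrosine kinase, rose by 0.31, from a median of 141 to 165, and Marcks, which tethers actin to the membrane, rose by 0.22, from a median of 1563 to 2001. Without litter N28M06 only Ptk7 kept its call in normal embryos, so that 1 of 38 members was called instead of 6, and the share over all genes was 4.62%. Without the 3 concepti 3 members were called, Ptk7, Cfl1 and Brd2.

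In diabetic embryos alone, Fkbp8 rose by 0.52 ± 0.08 (SE, log2, adjusted p = 8.77e-06), and all 16 older embryos exceeded the median of the younger ones. Dvl2, Casp9 and Vasp also rose, by 0.36, 0.30 and 0.28. Nf1 fell by 0.63, Cited2 by 0.60, Vangl1 by 0.44, Grhl2 by 0.44 and Jarid2 by 0.38. VANGL1 is a core polarity protein of the membrane. Of these 9 genes only Fkbp8 had a called interaction of stage with diabetes. Casp9 lost its stage call without litter D24M15 and without a filter (adjusted p at most 0.0539), Grhl2 without a filter (0.0587), and Dvl2 with litter as a random block (0.0516). Markers of other tissues changed with stage in the same embryos: 5 of 5 heart markers and 3 of 3 erythroid markers tested rose in diabetic embryos, and 2 of 5 and 3 of 3 rose in normal embryos. Of 8 neural plate markers 4 were called in diabetic embryos, 3 higher and 1 lower, and 2 in normal embryos, 1 in each direction. Surface ectoderm markers were called in diabetic embryos for 3 of 7 (2 higher and 1 lower) and in normal embryos for 0 of 7, where 1 had an unadjusted p under 0.05. In diabetic embryos 2 of 5 endothelial markers were higher and the trophoblast marker Plac1 was lower, and in normal embryos the visceral endoderm marker Amn was lower. The paraxial mesoderm marker Tcf15 was higher in both. The summed erythroid markers had a median of 35.4 and 230 normalized counts in the younger and older diabetic embryos. Their part in the stage differences of the members was not tested.

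**Figure D3:**
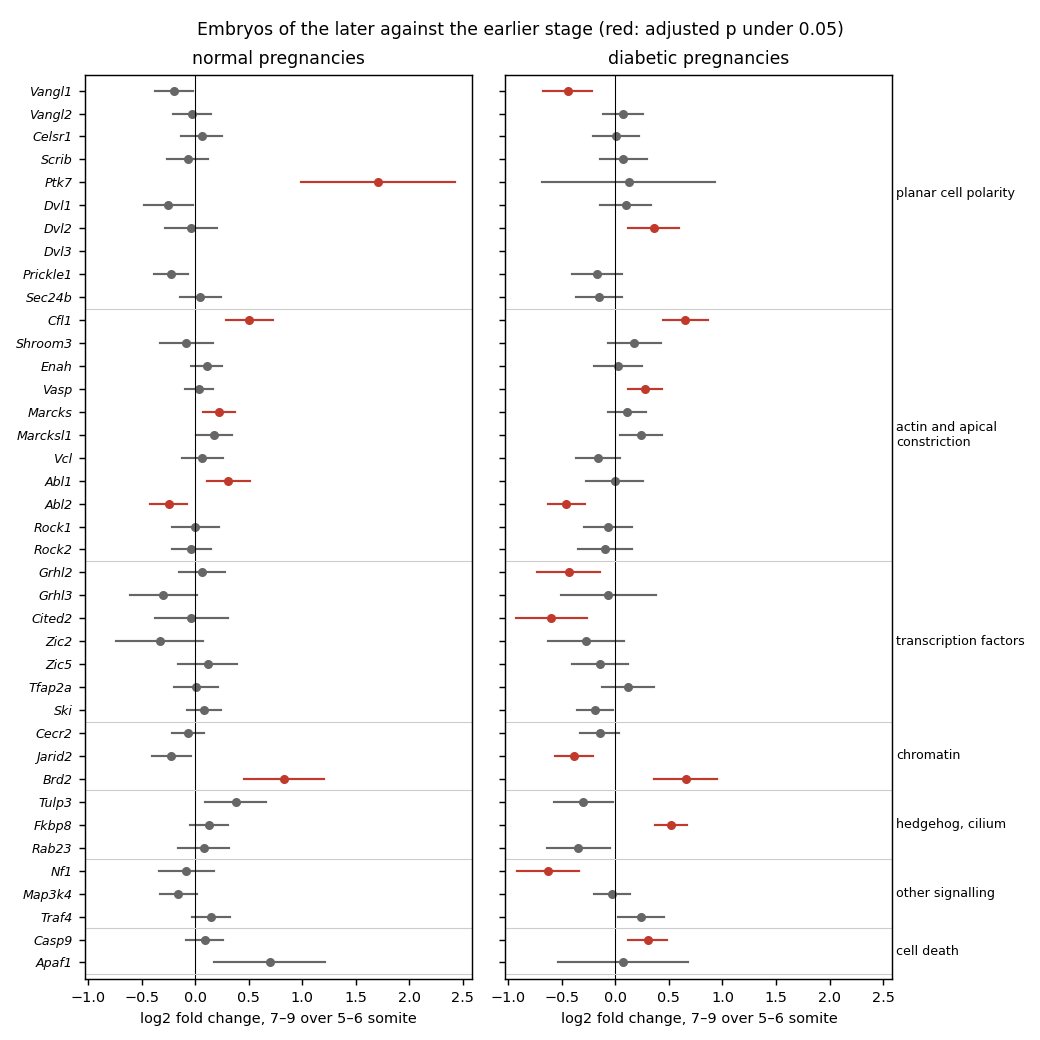
Log2 fold change of 7–9 over 5–6 somite embryos for each tested member in normal (left) and diabetic (right) pregnancies, from edgeR, grouped by role. Points are estimates, bars are 95% intervals and red marks an adjusted p under 0.05, with 6 red points on the left, led by Ptk7 at 1.71, and 12 on the right.

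In yolk sacs, 5 of 34 members were called between stages in normal pregnancies, against 7.84% of all genes, and 12 of 34 in diabetic pregnancies, against 33.7%. Of the 5, 3 rose and 2 fell, against 4.82% and 3.02% of all genes, and of the 12, 6 rose and 6 fell, against 18% and 15.7%. Cfl1 rose most, by 0.94 ± 0.15 (SE, log2, adjusted p = 0.000242) in normal and 1.23 ± 0.10 (SE, adjusted p = 4.33e-11) in diabetic yolk sacs, and in diabetic pregnancies 15 of 16 older yolk sacs exceeded the highest younger one. Marcks and Fkbp8 rose in both conditions too, by 0.29 and 0.44 in normal and by 0.53 and 0.55 in diabetic yolk sacs. Vangl2, a core polarity protein whose loss leaves the hindbrain and spinal cord open, fell by 0.55 and 0.77, and Cecr2, a chromatin remodelling factor, fell by 0.60 and 0.49. Brd2 rose by 1.12 ± 0.14 (SE) in diabetic yolk sacs, where it was called, and had an estimate of 0.40 ± 0.18 (SE, adjusted p = 0.162) in normal ones. Of the other members called in diabetic yolk sacs, Casp9 and Vasp rose by 0.38 and 0.23, and Jarid2, Nf1, Abl2 and Vangl1 fell by 0.44, 0.42, 0.30 and 0.26. Without litter D24M15, 8 members were called there against 23.2% of all genes, and Casp9, Vasp, Cecr2 and Nf1 were not. Vasp and Vangl1 also lost their calls without a filter and without the 3 concepti. Over all 8 alternatives there, Vangl1 kept its call in 6 and Vasp in 5, with adjusted p of at most 0.0658 and 0.137. In normal yolk sacs Marcks and Vangl2 lost theirs without a filter (0.0854 and 0.0526). Markers of other cell types moved with stage in the same yolk sacs. In diabetic pregnancies 8 of 10 visceral endoderm markers and 5 of 5 erythroid markers rose, 4 of 7 surface ectoderm markers were called (3 higher and 1 lower), 3 of 6 endothelial markers were called (2 higher and 1 lower), and Plac1 fell by 1.37 on the log2 scale. In normal pregnancies 6 of 10 visceral endoderm markers were called (5 higher and 1 lower), 3 of 5 erythroid and 2 of 6 surface ectoderm markers and 1 of 5 endothelial markers rose, and Plac1 was lower. In yolk sacs the surface ectoderm list is not specific to that tissue. Cdh1, Krt18, Krt8 and Epcam had higher medians in yolk sacs than in embryos, for Cdh1 1331 against 508. The medians of Wnt6, Trp63, Tfap2c and Krt19 were lower there. Irx3 was the neural plate marker tested in yolk sacs, and it was lower in both conditions. The part of these markers in the values of the members was not tested. The difference in stage change between normal and diabetic yolk sacs was not tested.

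The members were set between the tissues of the same concepti, with maternal condition as a covariate. At the 5–6 somite stages 31 of 38 members were called, against 79.1% of all genes, and 24 were lower in the yolk sac and 7 higher (39.7% and 39.3% of all genes). At the 7–9 somite stages 33 of 37 were called, against 81.2%, and 24 were lower and 9 higher (42.6% and 38.6%). The median log2 fold change of yolk sac over embryo was -0.46 and -0.41 over the members and 0.00 and -0.04 over all genes. Among transcription factors 6 of 7 and then 5 of 6 were lower in the yolk sac, with a median log2 fold change of -1.81 and -1.85.

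Tfap2a, the AP-2 factor of surface ectoderm and neural crest, averaged 51.5 ± 12.1 (SD, n = 34) in younger embryos and 2.10 ± 1.75 in their yolk sacs, a log2 fold change of -4.54 ± 0.16 (SE, adjusted p = 5.37e-40). Zic2, a zinc finger factor of the dorsal neural folds, averaged 18.6 ± 7.59 and 1.12 ± 1.52, a log2 fold change of -4.04 ± 0.22 (SE). Embryo values of both genes exceeded those of the yolk sac in every one of the 34 concepti. These include D28M27C, whose embryo and yolk sac carried different sex labels, as did those of N28M07E at the later stage. Vangl2 averaged 465 ± 88.2 and 78.0 ± 19.8 at the earlier stage and 469 and 49.9 (n = 32) at the later stage, with log2 fold changes of -2.50 ± 0.08 and -3.22 ± 0.09 (SE). Celsr1 and Cecr2 had log2 fold changes of -2.35 and -2.32 in younger and of -2.19 and -2.79 in older concepti. Ptk7 had log2 fold changes of -2.21 and -2.35, yet in 3 of 34 and 5 of 32 concepti the yolk sac held more.

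The 7 members higher in yolk sacs at the earlier stage were 4 cytoskeletal genes (Rock1, Rock2, Vasp and Vcl), 2 polarity genes (Dvl1 and Vangl1) and Traf4. Dvl1 was higher by a log2 fold change of 1.21 ± 0.08 (SE, adjusted p = 7.86e-23) and 1.29 ± 0.08 (SE), with the yolk sac above the embryo in 34 of 34 and 32 of 32 concepti. Its means were 48.8 ± 11.6 (SD) in embryos and 108 ± 23.1 in yolk sacs at the earlier stage. Rock2 and Rock1, kinases that drive myosin contraction, were higher by 0.72 and 0.47 in younger and by 0.60 and 0.45 in older concepti. Vasp was higher by 0.45 and 0.44, and Cited2 was called at the later stage, at 0.50. Vangl1 was higher in the yolk sac, by 0.27 and 0.43, while its paralog Vangl2 was lower. In the yolk sacs Sox1, Pax6, Hes5 and Nkx6-1 had a median of 0, and Irx3, at a median of 36.8, was the highest of the 8 neural plate markers there. The counts of calls were 31 and 33 again with each conceptus as a replicate block.

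**Figure D4:**
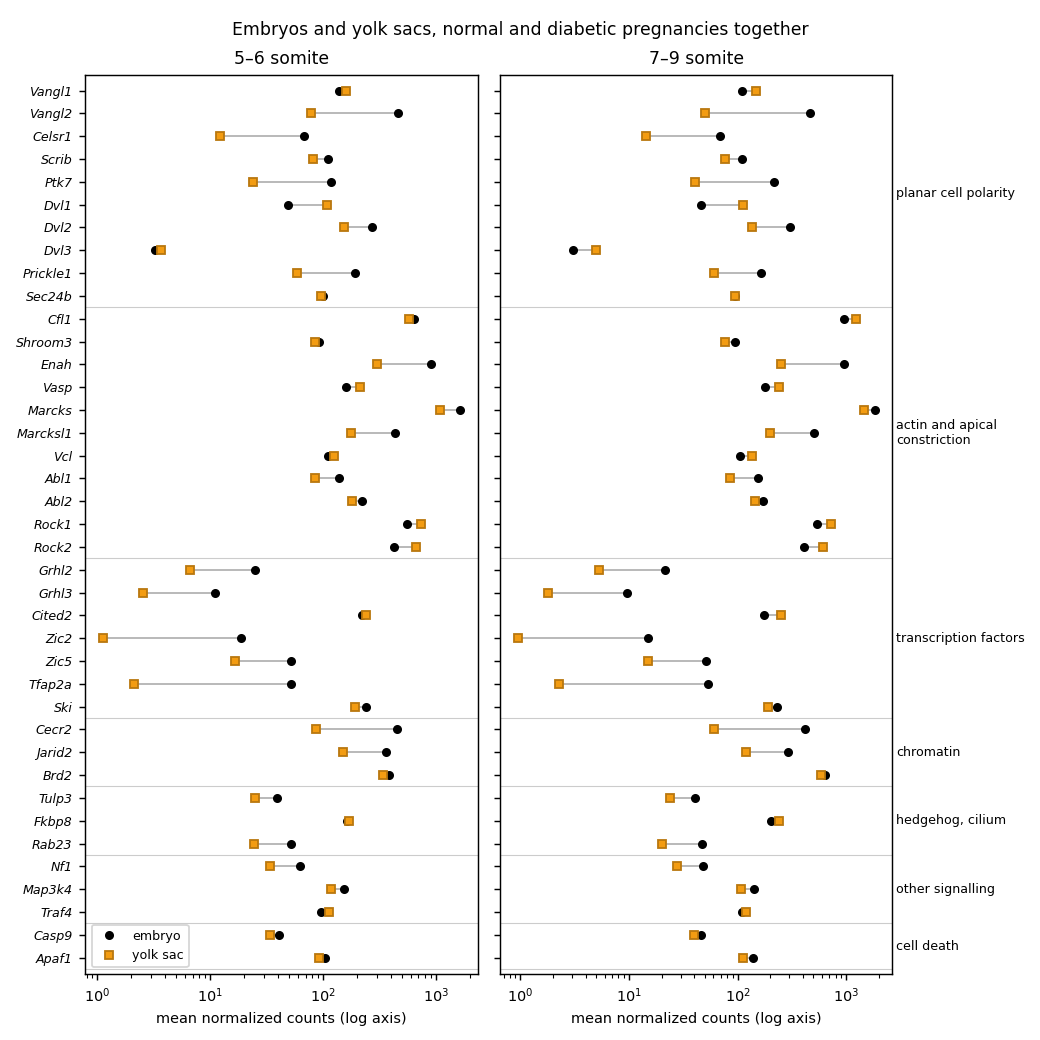
Mean normalized counts (log axis) of each member in embryos (black circles) and yolk sacs (orange squares), over 34 concepti at the 5–6 somite (left) and 32 at the 7–9 somite stages (right). The line joins the tissues for 1 gene, so that its length shows the difference, longest for Tfap2a and Zic2, and it runs the other way for Dvl1. Levels are comparable within a gene, not between genes.

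Spread between embryos of a group was uneven over the members. The coefficient of variation of Ptk7 was 64.0–116% over the 4 embryo groups and that of Apaf1, the scaffold of the apoptosome, was 51.0–73.1%, whereas for Fkbp8 it was 12.8–19.6%. Libraries at the ends of the range stood apart over many members. Among 38 members that averaged 5 or more normalized counts, the embryo N28M07J was lowest of its group for 8, Ptk7 and Apaf1 included, and highest for 10. D28M36C was lowest for 7, Ptk7 included, and highest for 10. Dvl2, Enah, Rock2, Shroom3, Prickle1 and Vangl1 were highest in both of these embryos. The largest numbers of lowest values came from D28M02I, lowest for 13 of the 38 and highest for 0, and D28M24C, lowest for 11 and highest for 2. The lowest diabetic values of Celsr1 and Dvl2 came from D28M02I in younger and from D28M24C in older embryos. The first principal component over the other genes held 24.9% of the variance within groups in younger and 38.1% in older embryos. Ptk7 and Apaf1 also varied together, a pair chosen after their values were seen, so the p-values describe the pair and are no independent test. On log2 of the normalized count plus 1, Pearson's r was 0.793 and 0.817 in younger normal and diabetic embryos (n = 17 each) and 0.866 and 0.941 in older ones (n = 16 each). Spearman's rank correlation was 0.824, 0.657, 0.797 and 0.909 in the same order. Permutation p-values of r lay between 1e-05, the smallest possible, and 0.00018, and those of the rank correlation between 1e-05 and 0.0053. Adjusted over 8 groups of both tissues, these became at most 0.000206 and 0.00577. The permutations took littermates as independent, and the adjustment did not cover the choice of the pair. Without the 2 embryos farthest from the median of Ptk7, r was 0.728, 0.571, 0.757 and 0.941. Within litters of 2 or more it was 0.745, 0.553, 0.911 and 0.914, and within the libraries whose titles carry the number 28 it was 0.808, 0.501, 0.882 and 0.922. In the same order of groups, of 703 pairs of members, 8, 17, 6 and 1 had an absolute r at least as large as this pair, itself counted, and the median absolute r over the pairs was 0.265, 0.312, 0.277 and 0.363. Ptk7 had an r of 0.07, -0.64, -0.70 and -0.93 with the first principal component, whose sign is arbitrary, and Apaf1 had -0.39, -0.65, -0.87 and -0.89. With that component regressed out of both genes, r of the pair was 0.893, 0.687, 0.737 and 0.678. Without the embryo lowest in Ptk7 it was 0.768, 0.789, 0.817 and 0.946. These settings were added after the data were seen, and the part of differences between whole libraries in the values of the pair was not separated further. In yolk sacs r lay between 0.691 and 0.955, though within litters of younger normal yolk sacs it was 0.292.

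**Figure D5:**
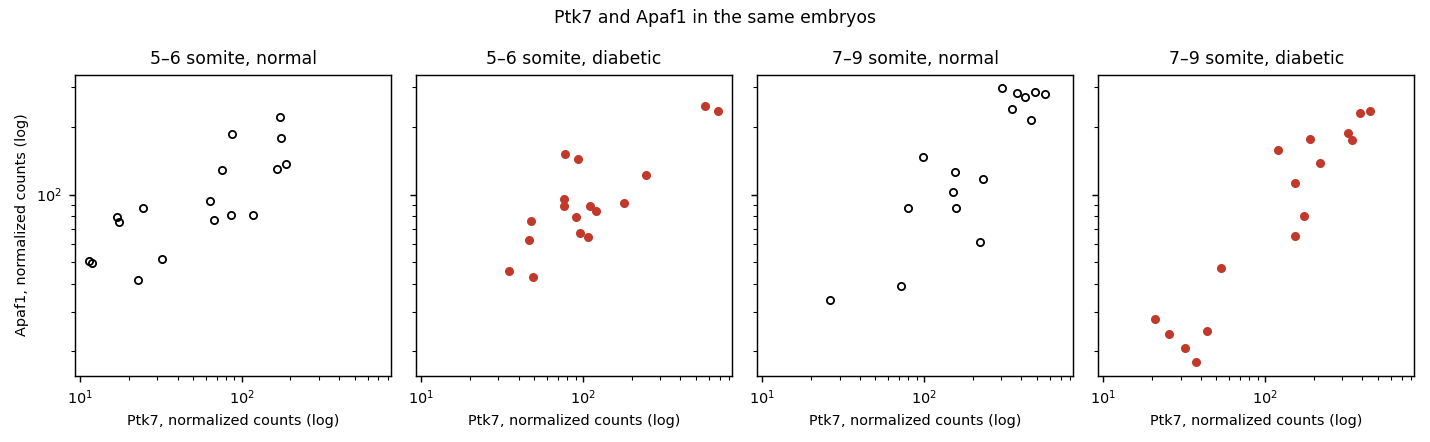
Normalized counts of Apaf1 against Ptk7 in the same embryos, both on log axes, 1 panel per stage and maternal condition and 1 point per embryo (normal open, diabetic red). In each of the 4 panels embryos with more Ptk7 had more Apaf1, with r between 0.793 and 0.941.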

How the data were processed

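RNA of embryos and visceral yolk sacs was sequenced by the authors from the 3′ end (QuantSeq FWD), with molecular identifiers (UMI) to collapse copies. Per the submitters' processing notes, reads were aligned with STAR to mm10 and counted per gene with HTSeq. Versions and annotation are not given in the sources used here. The deposited values are raw UMI counts per gene, without normalization or filter. The 39 genes, the other gene lists and the tests were chosen with earlier results of these data known.

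Groups follow the labels for tissue, somite pairs and maternal condition, and 4 batch-control duplicates of 2 concepti were left out. Genes passing filterByExpr (minimum count 10) were tested with edgeR 4.0.16 (TMM, glmQLFit, glmQLFTest, R 4.3.3), with Benjamini-Hochberg adjustment over all genes tested and a call at an adjusted p under 0.05. Libraries of littermates are not independent, and litter was treated in alternatives only. Alternatives were RLE scaling, no filter, a mean count of 10, DESeq2 1.42.0, size factors within tissue and stage, TMM CPM for levels, litter as a random block (limma 3.58.1), counts summed per litter, covariates (somite number and sex, or the first number in the sample title, whose meaning is not given in the sources used here), leaving out litters, and the conceptus as a block. Added after the data had been seen were the first principal component of within-group deviations as a covariate and the omission of 3 concepti. Normalized counts use DESeq2 size factors over 132 libraries. Litter means of log2 (normalized count plus 1) were compared over all 92378 or 1716 splits of the litters, and permutation tests of correlations used 100000 resamples. Litter tests covered only members called, or with the 3 smallest p-values, in the same diabetes comparisons, or called in the interaction of stage and diabetes. Embryo and yolk sac of a conceptus share a label, and their deviations from group means had a median correlation of 0.121 (5–6 somites) and 0.0465 (7–9 somites). Scripts were tested on simulated data. Total counts of 1017901 to 5658850 per library limit precision for members of few counts. Coordinates are from GENCODE M21 (GRCm38) and promoters from RefSeq (GRCm38.p6), which held 31 of the 39 members. Full values were given for members called in a diabetes comparison or an interaction and for the 3 smallest p-values of each diabetes comparison. Between stages, the 4 largest called rises and 4 largest called falls in normal embryos were named, with any member called in 1 condition only, and between tissues the 4 largest called differences in each direction. Other pathway genes were counted, and named where called in a diabetes comparison.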

Additional observations from a re-analysis of the deposited data

Results flagged for a closer look

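Among the 38 members tested, 2 had effects of maternal diabetes that differed between the stages in embryos by a test of the interaction, against 8.7% of all 11304 genes. Tulp3 had an interaction of -0.69 (log2, adjusted p = 0.0297 by edgeR), higher in diabetic pregnancies at 5–6 somites and lower at 7–9 somites by estimate, and Fkbp8 had an interaction of 0.38 (adjusted p = 0.0331), with the difference at 7–9 somites. Groups of 16 or 17 samples are too large for the test of single outlying samples used here. Fkbp8 kept its call in 5 and Tulp3 in 7 of 8 alternatives, and without a filter on low counts neither gene was called. Neither pattern was weighed against technical explanations.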

How the results depend on the processing

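Counts of members called are given here with the share of all genes called under the same setting, and the cause of each shift was not tested. For maternal diabetes in 5–6 somite embryos the count was 0 (1.46%). It was 1 with the title number as a covariate (Tulp3, 2.94%), 1 with the first principal component as a covariate (Nf1, 7.87%), and 0 to 1 with each litter left out, where Tulp3 was called without N23M31 (5.1%). In 7–9 somite embryos the count was 2 (9.09%). It was 1 without a filter (3.92%), 1 with litter as a random block (2.95%), 0 with counts summed per litter (0%), 4 with the title number (16.1%), 11 with the principal component (2 higher and 9 lower, 26.7%), 1 without the 3 concepti of doubtful sex (5.07%), and 1 to 2 with each litter left out. Between stages in normal embryos 6 members (15.1%) became 3 without a filter (4.68%), 10 with litter as a random block (18.8%), 1 without N28M06 (4.62%) and 3 without the 3 concepti (13.2%). In normal yolk sacs 5 (7.84%) became 3 without a filter (1.87%), 8 without N28M06 (11.7%) and 8 with the principal component (17.5%). The interaction of stage and diabetes gave 2 (8.7%), which became 0 without a filter (1.47%), 5 with litter as a random block (11.4%), 8 with the principal component (21.6%) and 1 without the 3 concepti (6.1%). The later interaction of tissue and diabetes gave 0 (0.389%), which became 1 by DESeq2 (1.89%) and 6 with the principal component (6.29%).

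With the conceptus as a replicate block, 31 and 33 members were called between tissues at the earlier and later stage and 0 and 0 in the interactions of tissue and diabetes, so the block changed no count. Counts of other comparisons stayed within 1.5 times the value reported. No estimate of a named member reversed. Genes of few counts, such as Dvl3, are limited by depth.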
